A study of Mus musculus with 10 samples.

Results

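The Notch genes described here are 10 members of 1 signalling pathway, chosen by symbol: the receptors Notch1, Notch2 and Notch3, the ligands Jag1 and Jag2, the receptor-modifying enzyme Lfng, and the target genes Hes1, Hey1, Heyl and Nrarp. All 10 were listed in both deposited tables, among 16292 genes for ameloblasts and 16638 for the stratum intermedium (17305 genes in either), and all 10 passed the filter on low values. The libraries came from claudin-10 knockout (KO) and wild-type (WT) mice. Ameloblasts, the cells that lay down enamel, and the stratum intermedium, the epithelial layer behind them, were cut separately by laser from frozen hemi-mandible sections, with 3 KO and 2 WT libraries per layer. The labels give the genotypes as KO Claudin 10 and WT. The labels used here do not state the age, strain or sex of the mice, which part of the gene is deleted, or in which cells. Library names start with KO1, KO3, KO9, WT10 or WT5 in both layers, and each prefix was taken to mark 1 mouse, which the labels do not state. The names also end in a group number, 1 for WT5 and KO3, 2 for WT10 and KO9 and 3 for KO1, whose meaning the labels do not give. Where the libraries were not from separate mice, the p-values below measure only the spread between libraries.

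Notch signalling passes between touching cells. A Jagged or Delta ligand on 1 cell binds a Notch receptor on its neighbour, the receptor is cut inside the membrane by gamma-secretase, and the freed intracellular part joins the DNA-binding protein RBPJ and a Mastermind coactivator to switch on Hes and Hey repressor genes. In the enamel organ, Notch1 is known from the stratum intermedium and Jagged ligands from the ameloblast side, so the pathway is a candidate for contact signalling between these layers.

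The core of the DNA word bound by RBPJ, TGGGAA, was searched together with its reverse complement in the RefSeq promoter windows of GRCm38.p6, from 250 bases before to 50 bases after a gene's start. Windows were found for 7 of the 10 genes, and those of Hes1, Hey1 and Heyl are not shown. The window of Lfng held 2 matches and those of Notch1, Notch2, Notch3, Jag1, Jag2 and Nrarp held 0, while 25.6% of all 32851 windows held at least 1. The windows of Lfng (chr5:140607091-140607390, plus strand) and of Nrarp (chr2:25180508-25180807, plus strand) are shown because both genes are known Notch targets and differ in this word. Capitals mark the matches, which in Lfng lie at positions -135 to -130 on the minus strand and -108 to -103 on the plus strand, counted from its start. A match is a description of the letters and not a measured binding site.
Lfng: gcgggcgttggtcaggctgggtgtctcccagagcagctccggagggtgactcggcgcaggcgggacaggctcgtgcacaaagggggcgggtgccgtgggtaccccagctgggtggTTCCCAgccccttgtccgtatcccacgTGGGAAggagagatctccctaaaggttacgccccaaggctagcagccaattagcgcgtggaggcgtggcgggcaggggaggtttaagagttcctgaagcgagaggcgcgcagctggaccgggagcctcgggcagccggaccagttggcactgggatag
Nrarp: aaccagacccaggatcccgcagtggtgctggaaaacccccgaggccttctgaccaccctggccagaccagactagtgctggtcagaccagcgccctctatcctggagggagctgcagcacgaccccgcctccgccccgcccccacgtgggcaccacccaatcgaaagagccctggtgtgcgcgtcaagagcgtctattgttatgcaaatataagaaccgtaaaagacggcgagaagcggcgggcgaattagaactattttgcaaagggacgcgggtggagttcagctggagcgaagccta

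Some facts of the whole series bear on every value. The values are normalized counts, summing to between 21006977 and 26856177 per library. The 2 tables were normalized separately. Cldn10, the deleted gene, had 280, 408 and 149 normalized counts in KO1, KO3 and KO9 ameloblasts, against 600.1 and 752 in WT10 and WT5. Its stratum intermedium values were 1003, 387 and 465 in KO1, KO3 and KO9, against 7257 and 2365 in WT10 and WT5. Every KO library was thus below every WT library of its layer (exact permutation p, two-sided, 0.2 for ameloblasts and 0.1 for the stratum intermedium; the design can give no p below 0.1). Xist was high in KO1 and KO3 and Y-linked genes in KO9 and both WT prefixes, so sex is unevenly spread over the genotypes. Genes listed at 0 were most frequent in WT10, with 706 in ameloblasts and 854 in the stratum intermedium. Ameloblast markers (9 of 9 measured) made up 2.25% to 9.19% of KO and 2.68% to 4.79% of WT ameloblast libraries, and 0.136% to 0.809% of KO and 0.517% to 0.957% of WT stratum intermedium libraries. Markers of the stratum intermedium and papillary layer (7 of 7) made up 0.114% to 0.174% of KO and 0.0694% to 0.0905% of WT ameloblast libraries, and 0.156% to 0.383% of KO and 0.141% to 0.347% of WT stratum intermedium libraries. Genes listed for odontoblasts and pulp reached at least 2.57% in every library of both layers. Their sum was led by Col1a1, Col1a2 and Ibsp, with means of 311500, 258770 and 271820 normalized counts in KO stratum intermedium, against 12439 for Dspp. The share is therefore not assigned to a cell type here. In such captures, fewer cells of a type and less RNA per cell cannot be told apart.

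**Figure D1:**
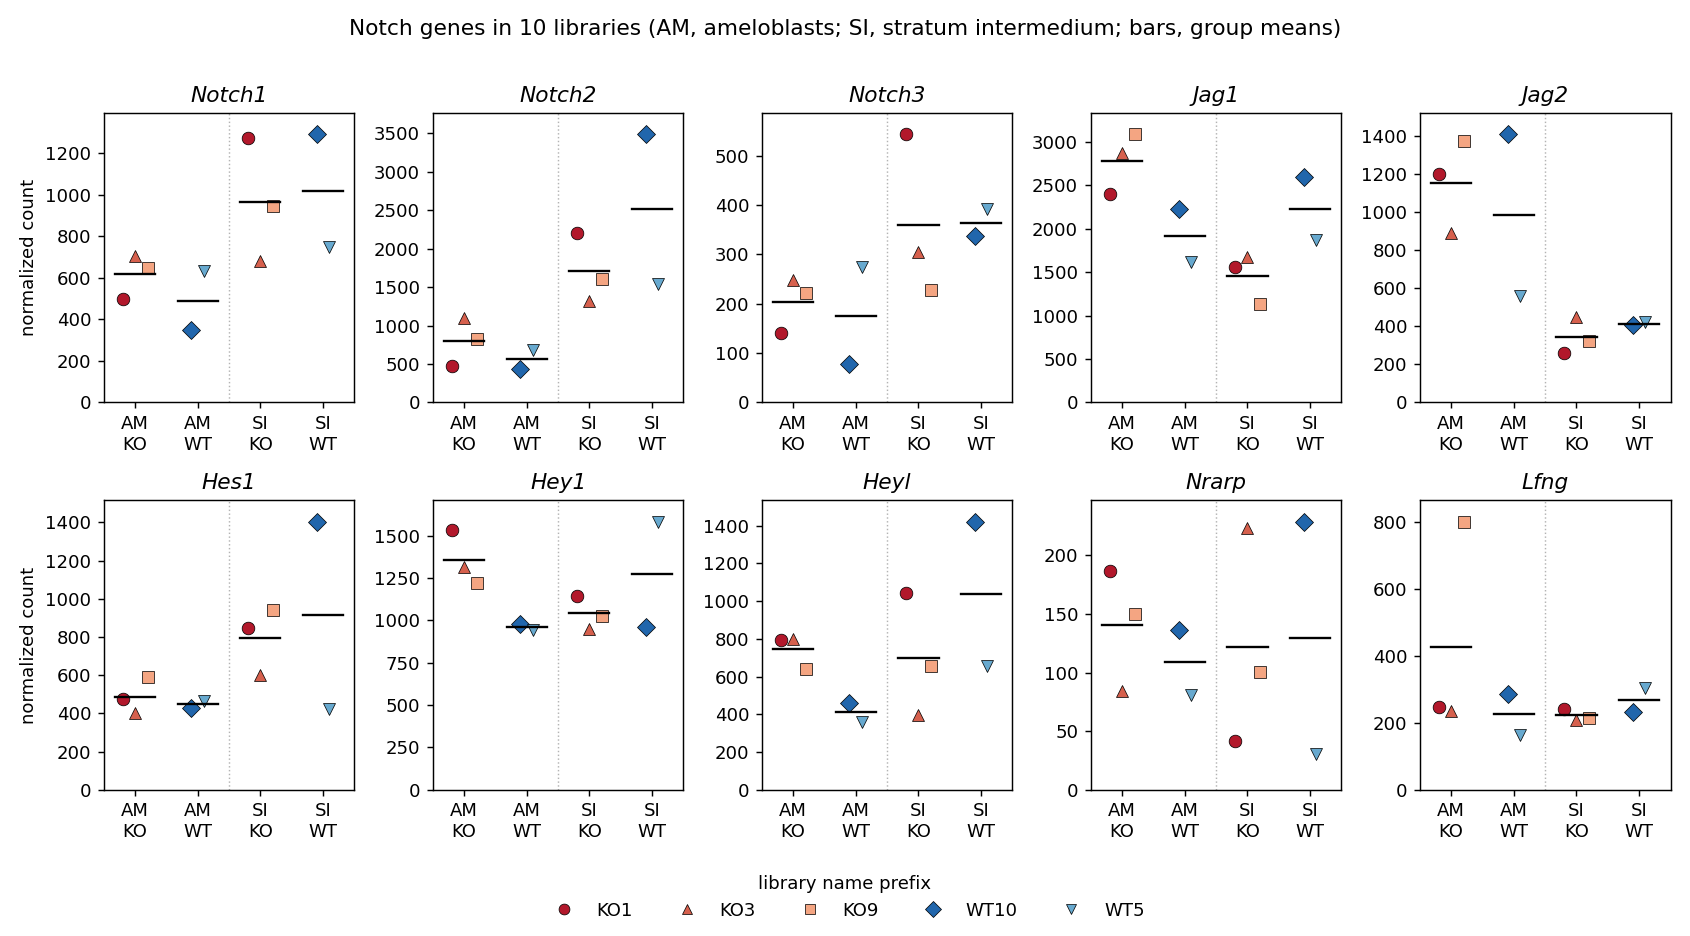
Normalized counts (vertical axes, each from 0) of the 10 Notch genes in ameloblasts (AM) and stratum intermedium (SI), with 1 point per library, shapes for library prefixes and bars for group means. Jag1, Hey1 and Heyl have all 3 KO ameloblast points above both WT points, and Jag1 has all 3 KO stratum intermedium points below both WT points.

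Within ameloblasts, when normalized counts were divided by exon length, the ligand Jag1 and the targets Hey1 and Hes1 had the highest mean levels of the family and the receptors Notch1 and Notch3 the lowest. Jag1 led with 418 ± 98.9 normalized counts per exon kb (SD, n = 5 libraries of both genotypes), followed by Hey1 with 367 ± 75.4, Hes1 with 231 ± 35.5 and Jag2 with 156 ± 51.7. Lfng had 139 ± 103, Heyl 119 ± 38.8 and Nrarp 49.5 ± 17.5 per kb. The receptors had 65.3 ± 25.0 for Notch2, 39.8 ± 10.1 for Notch1 and 23.8 ± 10.0 for Notch3. Neighbours in this order had overlapping ranges in every case, but Jag1 lay between the 78.9 and 87.2 percentile of all genes of its library and Notch1 between the 29.9 and 41.1 percentile.

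In the stratum intermedium the order was led by target genes, with Hes1 at 414 ± 184 and Hey1 at 347 ± 80.4 normalized counts per exon kb (SD, n = 5). Jag1 had 303 ± 92.1, Notch2 189 ± 81.3, Heyl 163 ± 78.5 and Lfng 96.1 ± 15.4. Notch1, the receptor known from this layer, had 69.5 ± 20.1, which placed it between the 38.1 and 53.8 percentile of all genes of its library. Jag2 had 53.5 ± 11.4, Nrarp 48.4 ± 37.2 and Notch3 44.7 ± 14.5. Again every pair of neighbours overlapped in range. Notch2 stood above Notch1 in 5 of 5 libraries here and in 5 of 5 ameloblast libraries.

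The layers were compared within each prefix as the log2 ratio of ameloblasts to stratum intermedium, centred on the median gene. This is a description without a test, because the tables were normalized separately. The ligand Jag2 was higher in ameloblasts in 5 of 5 prefixes, by a mean of 1.64 on the log2 scale (SD 0.77), and the receptor Notch2 was lower in 5 of 5, with a mean of -1.37 (SD 1.10). Of 15567 genes, 11.1% were higher in ameloblasts in all 5 prefixes and 9.96% lower, so 1 of 10 members each way is near the background. With all genes ranked from the lowest to the highest mean ratio, sign included, Jag2 lay at the 97.6 percentile and Notch2 at the 4.55 percentile.

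The other receptors leaned towards the stratum intermedium. Notch1 was lower in ameloblasts in 4 of 5 prefixes (mean log2 ratio -0.64, SD 0.83), from -1.78 in WT10 to 0.21 in KO3. Notch3, a receptor known from pericytes and smooth muscle, was lower in 4 of 5 (mean -0.83, SD 0.99). For both, the KO1 and WT10 pairs gave ratios under -1 and the other 3 pairs ratios between -0.38 and 0.21. The target Hes1 was lower in ameloblasts in 4 of 5 prefixes (mean -0.58, SD 0.69), and WT5 was the exception at 0.31. Heyl, Nrarp and Lfng had ratios of both signs, with SDs of 1.00, 1.47 and 1.01, larger than their mean ratios of -0.23, 0.54 and 0.45. Hey1 had a mean of 0.23 (SD 0.49) that was -0.01 when values were taken as shares of each library's sum.

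Markers of blood vessels and of the stratum intermedium leaned the same way between layers as the receptors. The endothelial list (10 of 10 measured, none at 0) made up 0.0122% to 0.0204% of KO and 0.00988% to 0.0349% of WT ameloblast libraries, against 0.0536% to 0.0623% of KO and 0.0472% to 0.0550% of WT stratum intermedium libraries. The pericyte and smooth muscle list (10 of 10, none at 0) made up 0.0221% to 0.0311% of KO and 0.0147% to 0.0445% of WT ameloblast libraries, against 0.0682% to 0.0906% of KO and 0.0584% to 0.0848% of WT stratum intermedium libraries. Both lists were thus lower in every ameloblast library than in every stratum intermedium library. The share of stratum intermedium and papillary layer markers was lower in ameloblasts for KO1 (0.161% against 0.383%) and KO9 (0.114% against 0.169%). It was also lower there for WT10 (0.0694% against 0.347%) and WT5 (0.0905% against 0.141%). For KO3 it was higher (0.174% against 0.156%), and the centred Notch1 ratio was above 0 in that pair alone, at 0.21. Taken as shares of each library's sum, as the markers are, Notch1 was level in that pair, with a log2 ratio of 0.0014. The part of these lists in the receptor ratios was not tested.

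**Figure D2:**
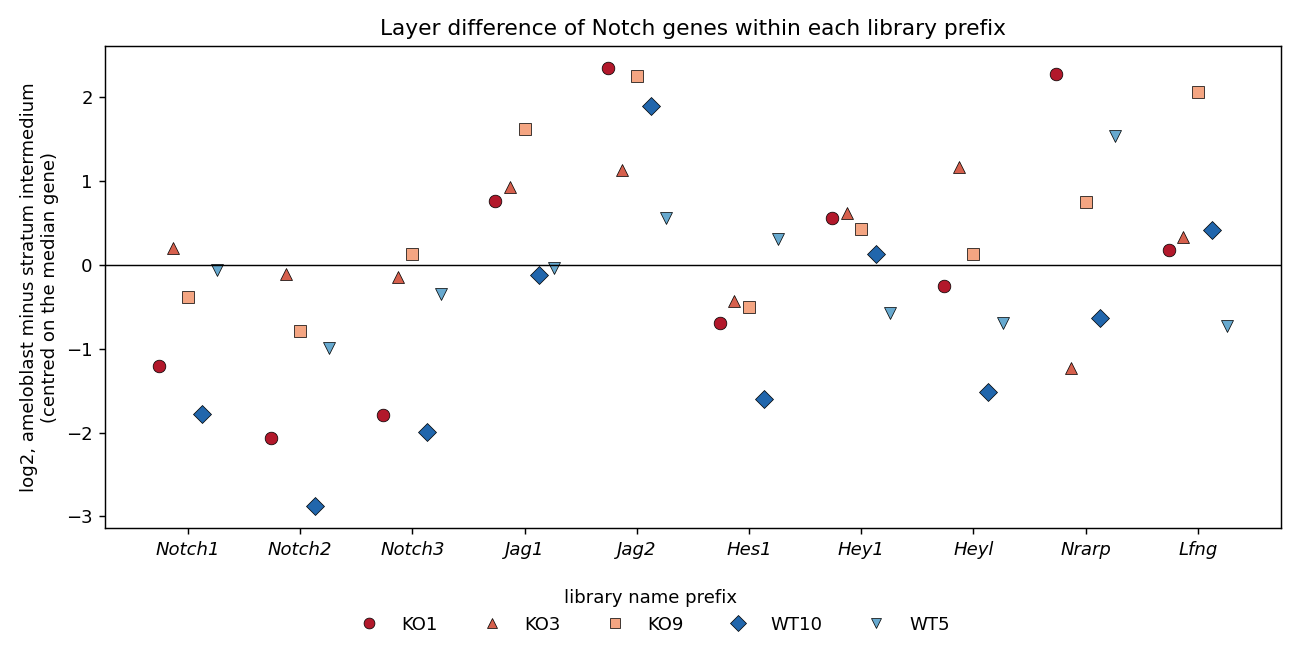
Log2 ratio of ameloblast to stratum intermedium values for each Notch gene (vertical axis, centred on the median gene), with 1 point per library prefix. Jag2 lies above 0 and Notch2 below 0 in all 5 prefixes, while the 3 KO prefixes of Jag1 lie between 0.77 and 1.62 and its 2 WT prefixes at -0.11 and -0.035.

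Ratios between 2 genes of the same library do not depend on how a table was scaled, and 3 of the 6 pairs computed had ranges that were apart between layers. The pairs were chosen with the gene values known and were not tested. The share of other gene pairs with ranges apart was not computed, so the count has no background. These ratios use the values of the layer comparison above and add no separate evidence. Per exon kb, Jag1 stood 11.7, 9.91 and 11.7 times as high as Notch1 in KO1, KO3 and KO9 ameloblasts and 15.6 and 6.22 times in WT10 and WT5. Stratum intermedium libraries had a Jag1 to Notch1 ratio of 2.98, 6.001 and 2.91 in KO1, KO3 and KO9 and 4.90 and 6.11 in WT10 and WT5. Jag1 exceeded Notch1 in every library of both layers, and by more in the ameloblast library of every prefix, though in WT5 the ratios were nearly level.

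Notch2 over Notch1 and Jag1 over Jag2 were the other pairs with ranges apart between layers. Notch2 over Notch1 ranged from 1.26 to 2.04 in ameloblasts and from 2.25 to 3.56 in the stratum intermedium. Jag1 over Jag2 ranged from 1.89 to 3.86 in ameloblasts and from 4.18 to 7.65 in the stratum intermedium. The ameloblast libraries therefore held relatively more Jag2 and the stratum intermedium libraries relatively more Notch2 in 5 of 5 prefixes. The ranges of Notch3 over Notch1, Heyl over Hey1 and Hes1 over Hey1 overlapped between layers.

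**Figure D3:**
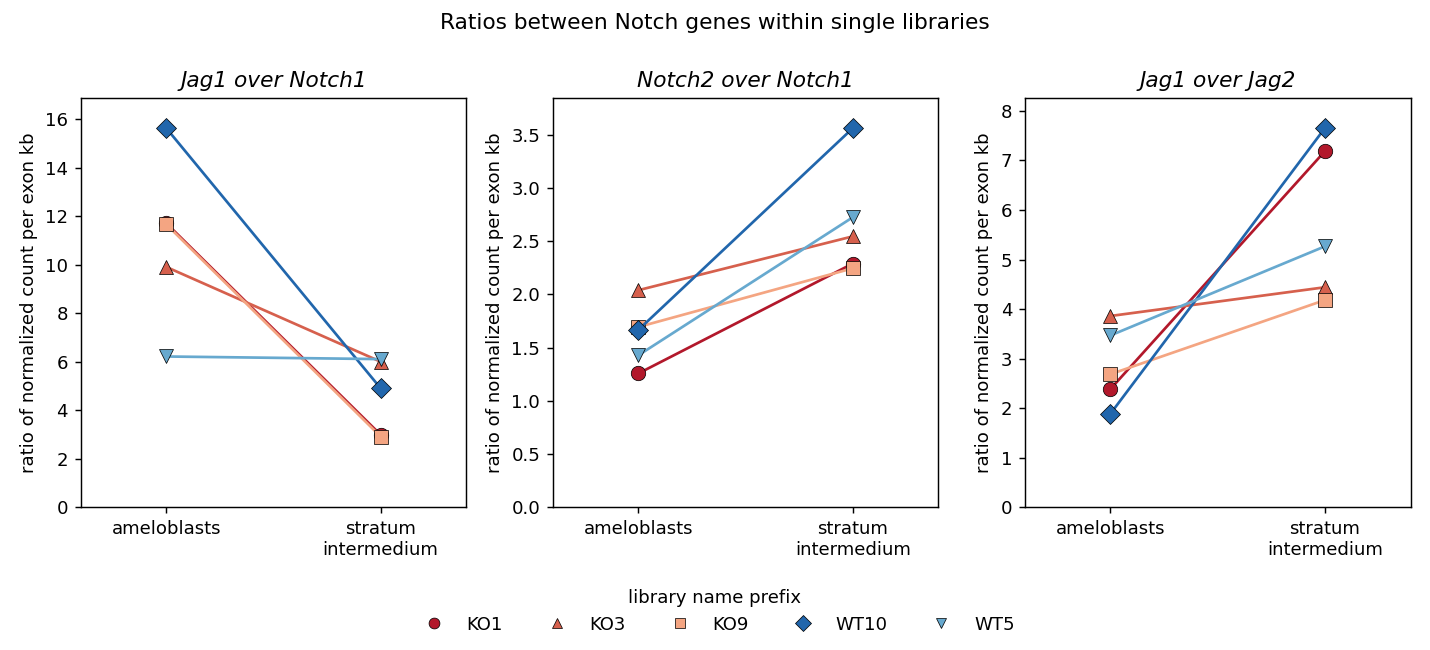
Ratio of normalized count per exon kb between 2 Notch genes of 1 library (vertical axes, from 0), in ameloblasts and stratum intermedium, with a line joining the libraries of each prefix. Jag1 over Notch1 falls and Notch2 over Notch1 and Jag1 over Jag2 climb from left to right for all 5 prefixes, and Jag1 over Notch1 of WT5 is 6.22 and 6.11.

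The comparison of KO with WT ameloblasts asked which Notch transcripts differ between the genotypes. All 10 Notch genes had a mean log2 difference above 0, with a median of 0.45 over the 10 genes and 0.035 over all 16212 genes tested, of which 53% lay above 0. Of the 10, none passed correction over all genes (smallest adjusted p = 0.989 in limma), and 0 of all genes tested did, with 498 genes at an unadjusted p under 0.05. Among the Notch genes 1, Heyl, had an unadjusted p under 0.05, where 2.25% of all genes did so with a higher KO value. The KO libraries lay above both WT libraries for 3 of 10 members (Jag1, Hey1 and Heyl), against 9.09% of all genes. The markers of the stratum intermedium and papillary layer given above were also higher in every KO ameloblast library than in both WT libraries, with 5 of 7 genes higher, and Rhcg and Vat1l were listed at 0 in WT10. Markers of red blood cells (5 of 5 measured) ran the other way, at 0.0814% to 0.144% of KO and 0.244% to 1.28% of WT ameloblast libraries. Osteoclast markers were lower in KO for 7 of 7 genes and skeletal muscle markers higher for 8 of 8, with summed shares that overlapped between the genotypes. The part of any of these cell types in the Notch values was not tested.

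The clearest target was Heyl (ENSMUSG00000032744, chromosome 4, 123233556 to 123249875 in GRCm38), a Hey-family repressor. It had 794, 801 and 639.9 normalized counts in KO1, KO3 and KO9 ameloblasts, against 461 and 358 in WT10 and WT5. The groups did not overlap, and the log2 difference was 0.87 (SE 0.28, 95% interval 0.20 to 1.53, unadjusted p = 0.018, adjusted p = 0.989 in limma). When 1 library at a time was left out, the unadjusted limma p lay between 0.0178 and 0.0743, above 0.05 without KO1, KO3 or WT5. A sex term, which leaves KO9 as the sole KO library to set against WT, gave a difference of 0.65. With the replicate number as a block the unadjusted limma p was 0.066, and with the library group it was 0.062. These blocks take KO3 and KO1, which have no WT partner there, out of the difference.

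Hey1 (ENSMUSG00000040289, chromosome 3, 8663359 to 8667256), the repressor closest in abundance to Jag1, had 1536, 1318 and 1224 normalized counts in KO1, KO3 and KO9 ameloblasts. It had 978 and 944 in WT10 and WT5, below all KO values. The log2 difference was 0.49 (SE 0.23, 95% interval -0.06 to 1.05, unadjusted p = 0.0718 in limma). Hes1 (ENSMUSG00000022528, chromosome 16, 30064384 to 30067796), the best known Notch target, had 473, 399 and 589 in KO1, KO3 and KO9 and 428 and 467 in WT10 and WT5. Its groups overlapped, with a difference of 0.10 (SE 0.30, 95% interval -0.61 to 0.82). The intervals of Heyl, Hey1 and Hes1 overlapped one another, and differences between these genes were not tested.

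The ligand Jag1 (ENSMUSG00000027276, chromosome 2, 137081456 to 137116644) had 2395, 2869 and 3086 normalized counts in KO1, KO3 and KO9 ameloblasts, against 2223 and 1617 in WT10 and WT5. All KO values were above both WT values, with KO1 nearest to WT10. The log2 difference was 0.55 (SE 0.25, 95% interval -0.04 to 1.13, unadjusted p = 0.0636 in limma), and it was 0.32 without WT5. Jag2 (ENSMUSG00000002799, chromosome 12, 112907819 to 112929776), the second Jagged ligand, had 1200.1, 889 and 1375 in KO1, KO3 and KO9 and 1409 and 557 in WT10 and WT5. The WT libraries enclosed the KO libraries, and the Jag2 difference of 0.36 (SE 0.43) was 1.03 without WT10 and -0.31 without WT5.

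Receptor differences in ameloblasts depended on which WT library was kept. Notch1 (ENSMUSG00000026923, chromosome 2, 26457903 to 26516663) had 499, 707 and 646 normalized counts in KO1, KO3 and KO9, against 347 and 635 in WT10 and WT5. Its log2 difference was 0.38 (SE 0.36), -0.056 without WT10 and 0.81 without WT5. Notch3 (ENSMUSG00000038146, chromosome 17, 32120820 to 32166852) had 141, 247 and 222 in KO1, KO3 and KO9, against 77.7 and 274 in WT10 and WT5, with a difference of 0.44 (SE 0.61) that was -0.47 without WT10 and 1.34 without WT5. WT10 was also the ameloblast library with the lowest endothelial share and the lowest pericyte and smooth muscle share and WT5 the one with the highest of both, and the part of those cells in the Notch3 values was not tested.

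Notch2 (ENSMUSG00000027878, chromosome 3, 98013527 to 98150361), the most abundant receptor per length, had 476, 1093 and 829 in KO1, KO3 and KO9 ameloblasts and 438 and 687 in WT10 and WT5. The groups overlapped, with a difference of 0.46 (SE 0.42) that was 0.14 without WT10 and 0.19 without KO3, but 0.79 without KO1 and 0.78 without WT5. Lfng (ENSMUSG00000029570, chromosome 5, 140607320 to 140615545), the Lunatic fringe enzyme that adds sugar to Notch receptors and changes their response to ligands, had 248, 235 and 802 in KO1, KO3 and KO9, against 288 and 163 in WT10 and WT5. A single library, KO9, stood above all others, and the Lfng difference of 0.73 (SE 0.61) was 0.16 without it, while leaving out WT10 gave 1.14 and leaving out WT5 gave 0.32. With sex as a covariate, which compares KO9 with the WT libraries, it was 1.88 (unadjusted p = 0.0135, adjusted p = 0.995 in limma). Nrarp (ENSMUSG00000078202, chromosome 2, 25180758 to 25183339), a target that feeds back to limit Notch activity, had 187, 84.5 and 150.1 in KO1, KO3 and KO9 and 137 and 81.2 in WT10 and WT5, with overlapping groups and a difference of 0.34 (SE 0.54).

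Overlapping annotation limits some of these values. Of the 2582 exon bases of Nrarp, 2051 are shared with the antisense gene Gm38287, and Notch1 shares 1068 and 414 of its 14232 exon bases with 0610009E02Rik and Gm13568 on the opposite strand. Notch2 shares 541 bases with Gm42820 on its own strand and Notch3 shares 488 with the antisense gene Gm17276. The libraries were stranded per the labels' protocols, but no source used here states whether the counting used strand, so reads of these partners may not be separated.

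In the stratum intermedium the same comparison leaned the other way. The median log2 difference of the 10 Notch genes was -0.26, against 0.017 over all 16543 genes tested, and 8 of 10 lay below 0, where 48.1% of all genes did. None passed correction (adjusted p of 1 in limma for all 10 after rounding), and 0 of all genes tested did, with 340 genes at an unadjusted p under 0.05. Among the Notch genes 1, Jag1, had an unadjusted p under 0.05, where 0.786% of all genes did so with a lower KO value. Jag1 was also the single member whose KO libraries lay below both WT libraries, against 7.44% of all genes. With the library group as a block, Jag1 was at -0.68 (unadjusted p = 0.0575), while Heyl at -0.92 (0.0148) and Notch2 at -0.67 (0.0474) had an unadjusted limma p under 0.05. KO1 is the only library of group 3, so these are the differences without KO1 and not an adjustment over all libraries. In the fit that left out KO1 without a block, 0 of the 10 Notch genes had an unadjusted limma p under 0.05. The smaller p-values thus rest on treating the group number as a pairing, which the labels do not state. The median was -0.65 without WT5 and -0.12 without WT10, so its size rested on which WT library was kept. Ameloblast markers were lower in KO for 7 of 9 genes of this layer (median -0.65), red blood cell markers for 5 of 5 (median -0.95) and osteoclast markers for 7 of 7 (median -0.15). Skeletal muscle markers were higher in KO for 7 of 8 genes (median 1.06). So were endothelial markers for 8 of 10 (median 0.13) and pericyte and smooth muscle markers for 8 of 10 (median 0.29). Markers of the stratum intermedium and papillary layer were lower in KO for 5 of 7 genes (median -0.14). The summed shares of all of these lists overlapped between the genotypes, and their part in the Notch values was not tested.

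Jag1 had 1556, 1678 and 1128 normalized counts in KO1, KO3 and KO9 stratum intermedium, against 2592 and 1868 in WT10 and WT5. The lowest WT value was above the highest KO value, and the log2 difference was -0.62 (SE 0.26, 95% interval -1.23 to -0.00, unadjusted p = 0.0496 in limma). Leaving out WT10 gave -0.38 and leaving out WT5 gave -0.85. The unadjusted p, from limma fitted across all genes, was 0.258 without WT10 and 0.0545 to 0.15 without any single KO library. Jag2 had 259, 452 and 323 in KO1, KO3 and KO9 and 405 and 424 in WT10 and WT5, with overlapping groups and a difference of -0.30 (SE 0.35).

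The receptors did not separate by genotype in this layer. Notch1 had 1274, 683 and 947 normalized counts in KO1, KO3 and KO9, against 1291 and 747 in WT10 and WT5, with a difference of -0.07 (SE 0.36, 95% interval -0.91 to 0.77). Notch2 had 2210, 1317 and 1611 in KO1, KO3 and KO9, against 3486 and 1542 in WT10 and WT5. The WT10 value alone was above the KO range, and the Notch2 difference of -0.47 (SE 0.38) was 0.12 without it. Notch3 had 543, 305 and 229 in KO1, KO3 and KO9, against 337 and 392 in WT10 and WT5, with a difference of -0.11 (SE 0.43).

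KO1 and WT10, 1 library of each genotype, had the highest Notch1 and Notch2 of this layer. The same 2 libraries had the highest share of stratum intermedium and papillary layer markers, 0.383% in KO1 and 0.347% in WT10, against 0.141% to 0.169% in the other 3. That share was read from 7 markers that leave out the Notch genes. It was carried mainly by Krt17 and Alpl, with means of 23307 and 22176 normalized counts in KO stratum intermedium, followed by Dsc3 with 4732 and Thbd with 913. Between the 2 WT libraries, Krt17 varied far more (mean 21903, SD 20396) than Alpl (mean 23520, SD 3637) or Dsc3 (mean 5976, SD 4247). The contrast of WT10 with WT5 in this share thus rested mostly on 1 gene, Krt17. KO1 and WT10 also had the most genes listed at 0 in this layer, 633 and 854, against 36 to 210 in the other libraries. In ameloblasts, KO1 had a marker share of 0.161% and Notch1 at 499, while WT5 had a lower share of 0.0905% and Notch1 at 635. How the marker share or the genes at 0 bear on the receptor values was not tested.

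Target genes in the stratum intermedium were spread widely within the WT group. Hes1 had 845, 599 and 943 normalized counts in KO1, KO3 and KO9, between the 1404 of WT10 and the 424 of WT5. Heyl had 1044, 395 and 656 in KO1, KO3 and KO9, against 1420.4 and 655 in WT10 and WT5, with a difference of -0.58 (SE 0.49) that was -0.018 without WT10, -0.22 without KO3, -0.92 without KO1 and -1.13 without WT5. Hey1 had 1147, 952 and 1026.5 in KO1, KO3 and KO9, against 963 and 1583 in WT10 and WT5, with a difference of -0.25 (SE 0.28). WT10 was high and WT5 low for Hes1 and Heyl, while Hey1 ran the other way.

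Nrarp and Lfng did not separate by genotype either. Nrarp had 41.7, 223 and 100.3 in KO1, KO3 and KO9 stratum intermedium, against 229 and 30.8 in WT10 and WT5, the widest relative spread of the 10 genes in this layer (log2 difference 0.21, SE 1.03). Lfng had 242, 209 and 215 in KO1, KO3 and KO9, against 232 and 305 in WT10 and WT5, with a difference of -0.26 (SE 0.36). Its KO libraries kept within a narrow band, unlike those of ameloblasts.

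**Figure D4:**
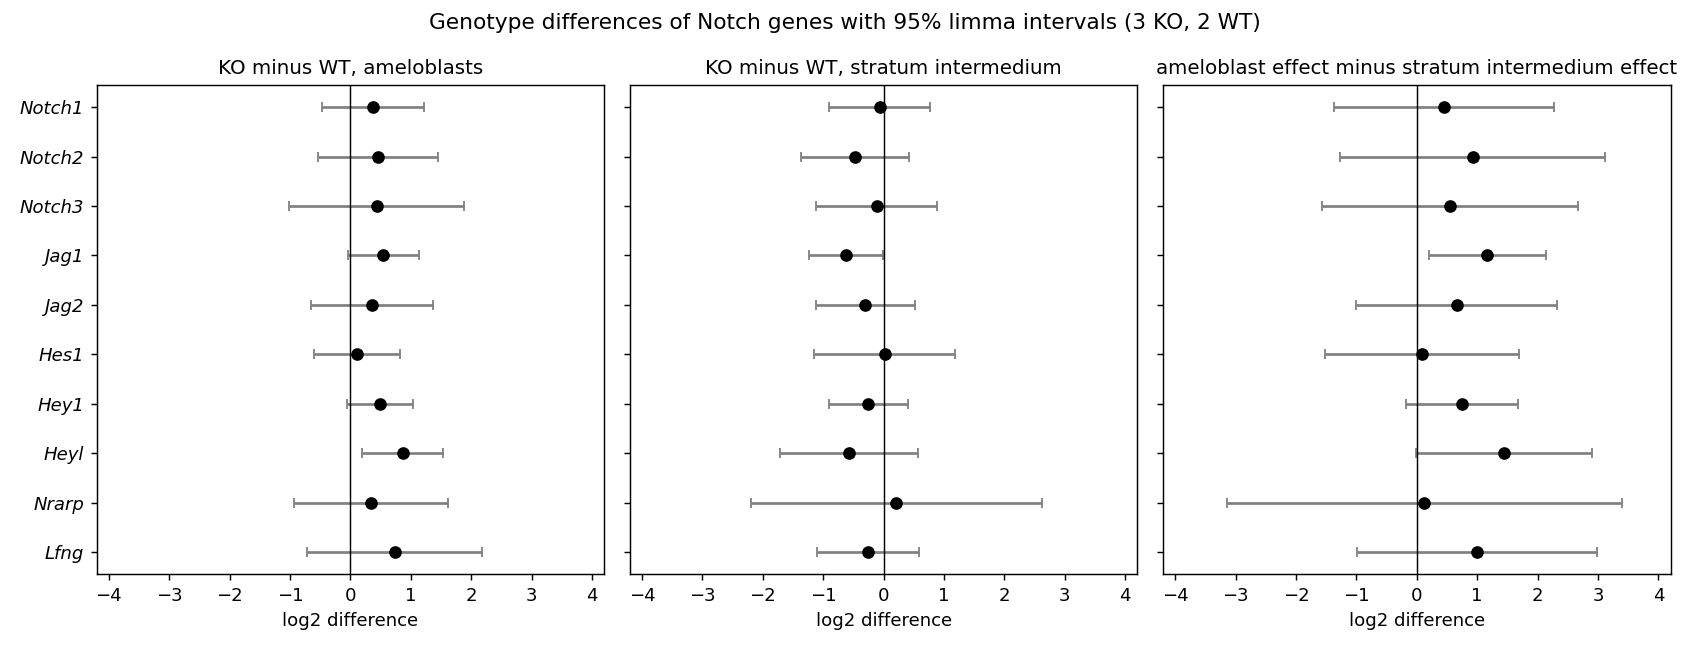
Log2 difference between KO and WT of each Notch gene in ameloblasts (left), in stratum intermedium (middle), and the ameloblast difference minus the stratum intermedium difference (right), with 95% limma intervals from 3 KO and 2 WT libraries or pairs. Heyl in ameloblasts, Jag1 in the stratum intermedium and Jag1 in the right panel have intervals that leave out 0, before any correction over genes.

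The difference between the genotype effects of the layers was tested on the log2 ratio of the layers within each prefix (ameloblasts over stratum intermedium, not centred), where a constant factor between the tables cancels. All 10 Notch genes had a value above 0, with a median of 0.70, against 0.0069 over all 15567 genes, of which 50.4% lay above 0. Without WT10, 6 of the 10 lay above 0 and 4 below, and the median ranged from 0.45 to 1.18 when each prefix was left out in turn. These values combine the differences of both layers already given and are no separate measure. None passed correction (smallest adjusted p among the 10 = 0.881 in limma), and 0 of all genes tested did, with 708 genes at an unadjusted p under 0.05. Among the Notch genes 1 had an unadjusted p under 0.05 with a higher KO value, where 2.4% of all genes did.

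That gene was Jag1. Its log2 ratio of ameloblasts to stratum intermedium was 0.62, 0.77 and 1.45 in KO1, KO3 and KO9, against -0.22 and -0.21 in WT10 and WT5. The sign of a single pair depends on how the layers were scaled. Centred on the median gene, Jag1 was still higher in ameloblasts in each KO pair (0.77 to 1.62). The WT pairs were then nearly level, at -0.11 in WT10 and -0.035 in WT5. The difference between KO and WT pairs, in which a constant factor cancels, was 1.16 (SE 0.37, 95% interval 0.19 to 2.13, unadjusted p = 0.0277, adjusted p = 0.881 in limma). The difference lay between 0.91 and 1.33 when each prefix was left out in turn. The unadjusted p, from limma fitted across all genes, was then 0.0349 without KO1 and 0.0574 to 0.0875 without KO3, KO9, WT10 or WT5. KO above WT in every ameloblast library together with KO below WT in every stratum intermedium library was found for 0.7% of genes.

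Heyl had the next smallest p. Its values were -0.39, 1.02 and -0.04 in KO1, KO3 and KO9, against -1.62 and -0.87 in WT10 and WT5, with a difference of 1.44 (SE 0.56, unadjusted p = 0.0512, adjusted p = 0.881 in limma). Hey1 followed, with 0.42, 0.47 and 0.25 in KO1, KO3 and KO9, against 0.02 and -0.75 in WT10 and WT5 (difference 0.74, SE 0.35). In these 3 genes every KO pair was above both WT pairs, which held for 10.9% of all genes, and in the other 7 members the groups overlapped.

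The rest of the pathway was read from a list of 48 further genes, of which 44 were tested in ameloblasts and 45 in the stratum intermedium. In ameloblasts 30 of 44 were higher and 14 lower in KO (median log2 difference 0.14), beside 53% of all genes above 0. Of these, 2 had an unadjusted p under 0.05, both higher, where 2.25% of all genes did so, and 0 passed correction in limma. Of those tested in the stratum intermedium, 23 were higher and 22 lower (median 0.0067), beside 48.1% of all genes below 0, and 1 had an unadjusted p under 0.05, higher in KO (as for 1.27% of all genes), and 0 passed correction in limma. Dll3, Hes5 and Hes7 were tested in neither layer, and Dtx1 not in ameloblasts.

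By role, the genes of receptor cleavage had 7 of 10 higher in KO ameloblasts (median 0.54) and 6 of 10 in KO stratum intermedium (median 0.048). The nuclear complex had 6 of 7 higher in ameloblasts (median 0.037) and 2 of 7 in the stratum intermedium (median -0.094). In ameloblasts the other ligands, the ligand ubiquitination genes and the corepressors each had 2 of 4 higher, receptor glycosylation had 3 of 4 and receptor turnover 5 of 8. Of all ameloblast genes, 53% lay above 0, and differences between roles were not tested. Aph1b, a gamma-secretase subunit, had 635, 464 and 597 normalized counts in KO1, KO3 and KO9, against 175 and 333 in WT10 and WT5 (log2 difference 1.21, SE 0.38, unadjusted p = 0.0151, adjusted p = 0.989 in limma). Nicastrin (Ncstn), another subunit, had 9834, 6809 and 8512 in KO1, KO3 and KO9, against 7225 and 3226 in WT10 and WT5 (difference 0.78, SE 0.37). Aph1b and Aph1c are close paralogs in the mouse, so reads could be split between them, and neither value is certain.

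The other ameloblast genes with the smallest p-values act on the receptor or in the nucleus. Poglut1, which adds glucose to the receptors, had 1444, 1093 and 937 in KO1, KO3 and KO9, against 660.5 and 699 in WT10 and WT5 (difference 0.75, SE 0.28, unadjusted p = 0.0307, adjusted p = 0.989 in limma). Maml2, a Mastermind coactivator, had 553, 534 and 722 in KO1, KO3 and KO9, against 334 and 431 in WT10 and WT5 (difference 0.65, SE 0.30). Hey2, a repressor related to Hey1, was scarce, with 23.8, 49.9 and 123 in KO1, KO3 and KO9, against 5.01 and 23.5 in WT10 and WT5 (difference 2.15, SE 1.06). KO libraries were above both WT libraries in all of these but Ncstn, as in 9.09% of all genes, but these genes were picked for having the smallest p-values of the list.

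Stratum intermedium Aph1c had 192, 152 and 257 normalized counts in KO1, KO3 and KO9, against 29.4 and 125 in WT10 and WT5 (log2 difference 1.67, SE 0.69, unadjusted p = 0.0449, adjusted p = 1 in limma). The coactivator Maml3 had 556, 525 and 488 in KO1, KO3 and KO9, against 742 and 790.3 in WT10 and WT5 (difference -0.55, SE 0.25). Dlk2, a noncanonical ligand, had 33.5, 38.3 and 61.7 in KO1, KO3 and KO9, against 174 and 75.0 in WT10 and WT5 (difference -1.39, SE 0.69). In Aph1c all KO libraries were above both WT libraries, as in 7.76% of all genes, and in Maml3 and Dlk2 all were below, as in 7.44%. These genes too were picked for their small p-values.

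Hes6, which counteracts Hes1, had 1823, 1654 and 1301 in KO1, KO3 and KO9, against 1236 and 1051 in WT10 and WT5 (difference 0.47, SE 0.24). Furin, the protease that first cuts the receptor on its way to the cell surface, had 902, 1088 and 831 in KO1, KO3 and KO9, against 1501 and 1092 in WT10 and WT5 (difference -0.45, SE 0.25), with KO3 just under WT5. Rbpj, the DNA-binding partner of the cut receptor, differed by 0.050 (SE 0.26) in ameloblasts and -0.094 (SE 0.33) in the stratum intermedium.

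**Figure D5:**
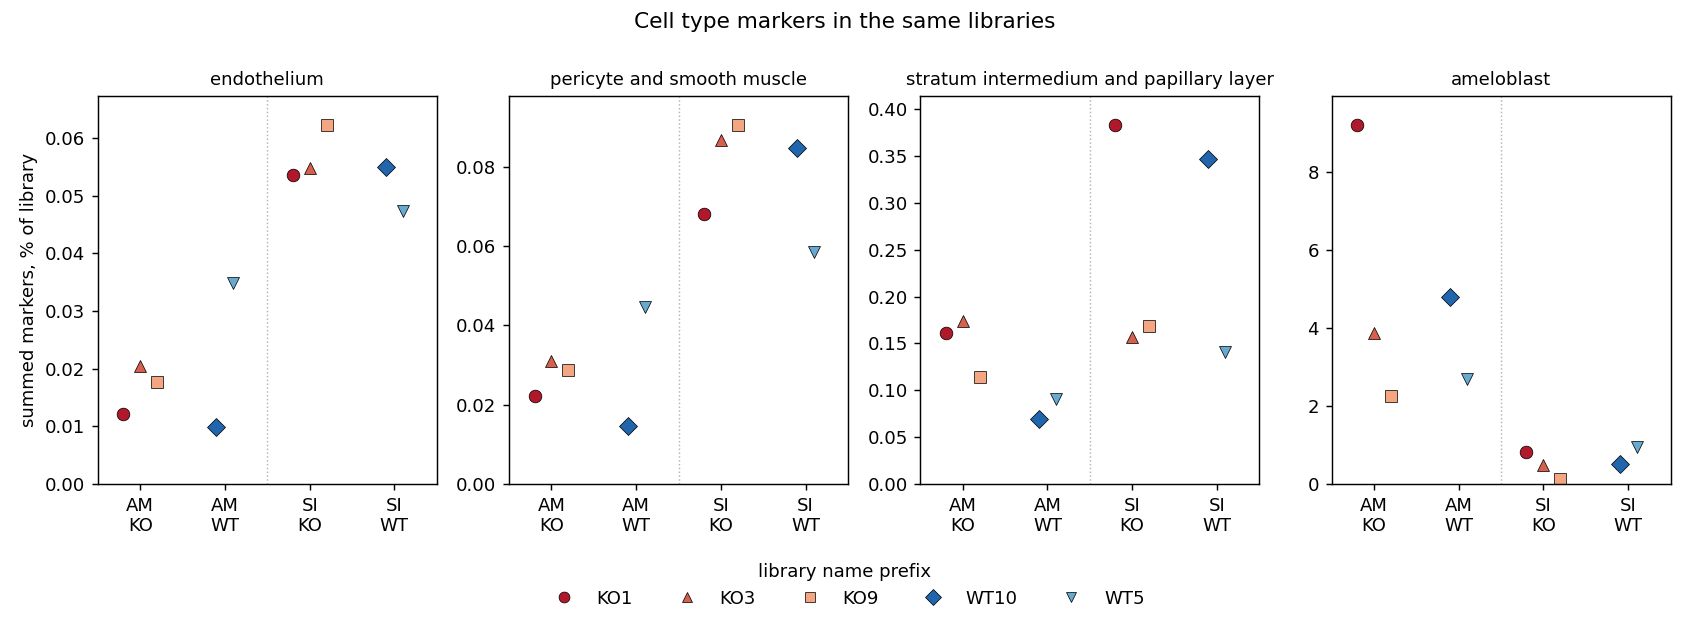
Summed markers as a percentage of each library's summed normalized counts (vertical axes, from 0) for endothelium, pericytes and smooth muscle, stratum intermedium and papillary layer, and ameloblasts, with 1 point per library. Vessel markers are lower in every ameloblast library than in every stratum intermedium library, and stratum intermedium markers are higher in the KO than in the WT ameloblast libraries.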

How the data were processed

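RNA-seq libraries of ameloblasts and stratum intermedium (5 each, 3 KO and 2 WT) were analysed from the signal values, normalized counts per gene, that the authors deposited as 1 table per layer, each named a DESeq2 normalized matrix. Per the labels' protocols, RNA was captured by laser and made into stranded polyA libraries. The submitters' processing notes name DESeq, featureCounts, Picard 2.8.1, STAR 2.5.2b and FastQC, without order or settings, and the build GRCm38. Table names give Ensembl release 101 and state that outliers were removed, with no names. Every listed gene had at least 10 in at least 3 libraries, so a gene could be listed through KO libraries alone. Low values were not whole multiples of 1 read, so no count test was made, depth is unknown and no counting intervals are given.

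Columns were matched by library name, with 0 left unused. Differences (KO minus WT) were tested with limma 3.58.1 in R 4.3.3 (trend in single layers, two-sided) on log2(normalized count + 1), a scale that understates the change of low genes, where a gene averaged 10 or more, with Benjamini-Hochberg adjustment over all genes and a threshold of 0.05. The fits were tested on simulated data. Layers were paired by prefix. The deviations of the 2 libraries of a prefix from their group means correlated across genes at 0.20 to 0.31, where the 2 WT values are equal by construction. Exon lengths and positions came from GENCODE M21 on GRCm38.

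Alternatives were other pseudocounts, filters and scalings, robust variance, library weights (statmod 1.5.0), sex, replicate number or library group as a term, and leaving out each library or prefix. The Notch genes, the lists and the tests were chosen with earlier results of these data known. All 10 Notch genes are named, and of the further pathway genes the 5 with the smallest p-values per layer and Rbpj, which was added for its role. Figures were drawn with matplotlib 3.10.9.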

Additional observations from a re-analysis of the deposited data

Results flagged for a closer look

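Jag1 was marked for a closer look because its KO libraries were all above WT in ameloblasts and all below WT in the stratum intermedium. The difference between the layers' genotype effects was 1.16 on the log2 scale (unadjusted p = 0.0277, adjusted p = 0.881 in limma) and did not pass correction over all genes. Since it is made from the same values, it restates that pattern and adds no separate evidence for it.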

How the results depend on the processing

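No alternative brought any of the 10 Notch genes, or any other gene, under an adjusted p of 0.05 in limma in either layer or in the difference between layers, and a threshold of 0.1 called 0 as well. The genes at an unadjusted p under 0.05 numbered 498 in ameloblasts, 340 in the stratum intermedium and 708 for the difference. With either WT library left out, those counts were 1311 and 1489 in ameloblasts and 496 and 1713 in the stratum intermedium. With WT5 left out, the difference had 1669. The lone WT library is there assumed to vary like the KO libraries. The direction and the side of the threshold held in 153 of 160 values in ameloblasts, 146 of 160 in the stratum intermedium and 133 of 140 for the difference. The others reversed, and the cause was not tested. Part of the agreement was fixed in advance. The filters and robust variance leave a log2 difference unchanged. In single layers the replicate and group blocks repeat the differences of fits that leave a library out. Since no gene passed in any setting, the side of the threshold was the same throughout. Library weights reversed Hes1 (-0.061) and Nrarp (-0.056) in ameloblasts, Hes1 (-0.086) in the stratum intermedium and Nrarp (-0.62) in the difference. The library group in the library names, whose pairs across genotypes had deviations that correlated at 0.0059 to 0.27, left 353 genes in ameloblasts and 489 in the stratum intermedium at an unadjusted p under 0.05. That block reversed Hes1 (-0.039) in the stratum intermedium. KO1 is the only library of group 3, so the block gave the differences found without KO1.

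On leaving out single libraries, log2 differences in ameloblasts ranged from -0.056 to 0.81 for Notch1, -0.47 to 1.34 for Notch3, -0.31 to 1.03 for Jag2, -0.042 to 0.24 for Hes1 and -0.034 to 0.71 for Nrarp. Stratum intermedium differences ranged from -0.46 to 0.33 for Notch1, -1.06 to 0.12 for Notch2, -0.46 to 0.16 for Notch3, -0.84 to 0.88 for Hes1, -0.61 to 0.11 for Hey1 and -1.21 to 1.64 for Nrarp. For the difference between layers they ranged from -0.38 to 1.28 for Notch1, -0.24 to 1.34 for Notch3, -0.84 to 1.01 for Hes1, -0.93 to 1.18 for Nrarp and -0.039 to 1.36 for Jag2. The median of the 10 genes ranged from -0.65 to -0.12 in the stratum intermedium and from 0.35 to 0.62 in ameloblasts. A sex term, which leaves KO9 as the sole KO library to set against WT, put the Jag1 difference between layers at 1.67.

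The labels' replicate numbers do not say that same-numbered KO and WT libraries share anything, and only 2 such pairs exist per layer, whose deviations correlated across genes at -0.19 to 0.09. With the replicate number as a block, 354 genes in ameloblasts and 185 in the stratum intermedium had an unadjusted p under 0.05, 0 genes passed correction, and the median of the Notch genes was 0.52 in ameloblasts and -0.24 in the stratum intermedium. In the stratum intermedium the block reversed Notch3 (0.16) and Hes1 (-0.12). The KO library numbered 3 has no WT partner (KO3 in ameloblasts, KO9 in the stratum intermedium). The block therefore gave the differences found without it.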
